A study of Rattus norvegicus with 12 samples.

Results

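The Cyp2c family comprises cytochrome P450 enzymes that the liver uses to hydroxylate steroids, retinoids, fatty acids and drugs. In the rat several members are textbook examples of sex-dependent expression: the pituitary releases growth hormone in pulses in males and more steadily in females, and this pattern, relayed through Stat5b and the liver transcription factors Onecut1 (HNF6), Hnf4a and the C/EBP proteins, sets Cyp2c11 and Cyp2c13 high in male liver and Cyp2c12 high in female liver. Glucocorticoids act on hepatocytes through the glucocorticoid receptor and change many P450 genes. Probes belonged to the family when the array's gene name began with Cyp2c or its description named a cytochrome P450 of the 2C subfamily. These were 14 of 41012 probes, 12 of them found by gene name and 2 by description only, under 11 of the array's 35537 gene or transcript names. Cyp2c7 had 4 probes and every other name had 1. Cyp2c7, Cyp2c11, Cyp2c12, Cyp2c13, Cyp2c22 and Cyp2c23 were all among them.

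The samples were primary hepatocytes, isolated by collagenase perfusion from Sprague-Dawley rats aged 11 weeks, kept 24 h in serum-containing medium and 24 h without serum before treatment. The 4 groups of 3 arrays were female dexamethasone and female vehicle, and male dexamethasone and male vehicle. Dexamethasone, a synthetic glucocorticoid, was given for 6 h at 100 nM (the labels write nm), and vehicle was 0.01% ethanol. No array came from uncultured liver or from animals given growth hormone. Sex was taken from the sample titles, because the gender field reads male for all 12 samples. Nothing in the labels makes the replicates separate animals, so p-values reflect variation among these cultures or preparations and may be partly technical.

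Values are log2 of the background-subtracted signal minus the array's 75th percentile of it, called relative log2 signal here, so that 0 is the 75th percentile of an array. Of the 14 Cyp2c probes, 9 were well above background on all 12 arrays. The 4 Cyp2c7 probes were well above background on all 6 female arrays but not on all male ones. The scanner's detection differed between groups: 72.4 to 77.8% of all probes were well above background on female dexamethasone arrays and 74.8 to 78.0% on female vehicle arrays, against 66.5 to 80.4% on male dexamethasone arrays and 45.7 to 55.6% on male vehicle arrays. Each of the 3 slides held 4 arrays. The male vehicle group shared slide 1 with replicate 1 of male dexamethasone, and the female dexamethasone group shared slide 3 with replicate 3 of female vehicle. The other 4 arrays, 2 from each sex, were on slide 2. The 10 hepatocyte markers were well above background on every array, with summed relative log2 signals of 10.21 to 10.42 in female dexamethasone, 9.93 to 10.37 in female vehicle, 10.28 to 10.57 in male dexamethasone and 10.57 to 10.99 in male vehicle arrays.

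The sequences upstream of members with opposite sex patterns are shown first, because those of Cyp2c12 and Cyp2c13 are closely related. RefSeq promoters on GRCr8 matched 7 of the 11 names, all on chromosome 1, where the genes run in the order Cyp2c11, Cyp2c55, Cyp2c7, Cyp2c12, Cyp2c13, Cyp2c22 and Cyp2c23 and Cyp2c12 and Cyp2c13 are neighbours. Each window is the 250 bases before the annotated start, 5′ to 3′ on the gene's strand: Cyp2c12 at chr1:248677035-248677284 (minus), Cyp2c13 at chr1:248787189-248787438 (minus), Cyp2c7 at chr1:247966144-247966393 (plus) and Cyp2c11 at chr1:246174966-246175215 (plus). Capitals mark the Onecut1 core ATTGAT and the Hnf4a site CAAAGTNCA on either strand.
Cyp2c12: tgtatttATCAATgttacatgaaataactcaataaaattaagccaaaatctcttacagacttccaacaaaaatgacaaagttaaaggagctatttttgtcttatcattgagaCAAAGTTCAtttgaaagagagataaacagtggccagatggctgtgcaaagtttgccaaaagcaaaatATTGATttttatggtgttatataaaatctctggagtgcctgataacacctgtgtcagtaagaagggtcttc
Cyp2c13: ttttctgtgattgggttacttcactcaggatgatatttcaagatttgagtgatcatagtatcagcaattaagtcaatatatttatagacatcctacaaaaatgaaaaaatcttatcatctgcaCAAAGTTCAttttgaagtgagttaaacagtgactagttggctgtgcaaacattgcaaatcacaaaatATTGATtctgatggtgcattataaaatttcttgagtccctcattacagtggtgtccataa
Cyp2c7: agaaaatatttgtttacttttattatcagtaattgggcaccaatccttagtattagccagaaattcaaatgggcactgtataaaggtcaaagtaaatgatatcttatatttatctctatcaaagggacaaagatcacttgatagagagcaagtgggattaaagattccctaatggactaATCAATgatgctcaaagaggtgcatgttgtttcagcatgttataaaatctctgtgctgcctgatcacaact
Cyp2c11: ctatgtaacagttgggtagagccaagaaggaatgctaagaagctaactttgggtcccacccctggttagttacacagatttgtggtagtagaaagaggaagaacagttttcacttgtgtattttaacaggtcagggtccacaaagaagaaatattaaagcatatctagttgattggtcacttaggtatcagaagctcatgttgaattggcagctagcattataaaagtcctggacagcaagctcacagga
The female-high Cyp2c12 and the male-high Cyp2c13 both held the CAAAGTNCA match, beginning 138 and 127 bases before the start, and an ATTGAT match on the same strand, beginning 71 and 60 bases before it. Cyp2c7 had the ATTGAT core on the opposite strand, 71 bases before the start. ATTGAT was present in 4 of the 7 Cyp2c windows and in 6.99% of 27457 RefSeq windows of this length, and CAAAGTNCA in 2 of the 7 and in 1.03% of all. In a global alignment Cyp2c12 and Cyp2c13 had 178 of 250 bases identical, against 133 to 186 over the 21 pairs, the highest being Cyp2c11 with Cyp2c55. Cyp2c11 had 156 identical with Cyp2c12 and 155 with Cyp2c7, against a median of 149. The Stat5 motif TTCNNNGAA matched none of the 7 windows and 7.52% of all windows. AGAACA, the half-site of steroid receptors such as the glucocorticoid receptor, matched once in the Cyp2c11 window, 151 bases before the start, and in 17.1% of all windows. These are letter matches in these windows, not measured sites.

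**Figure D1:**
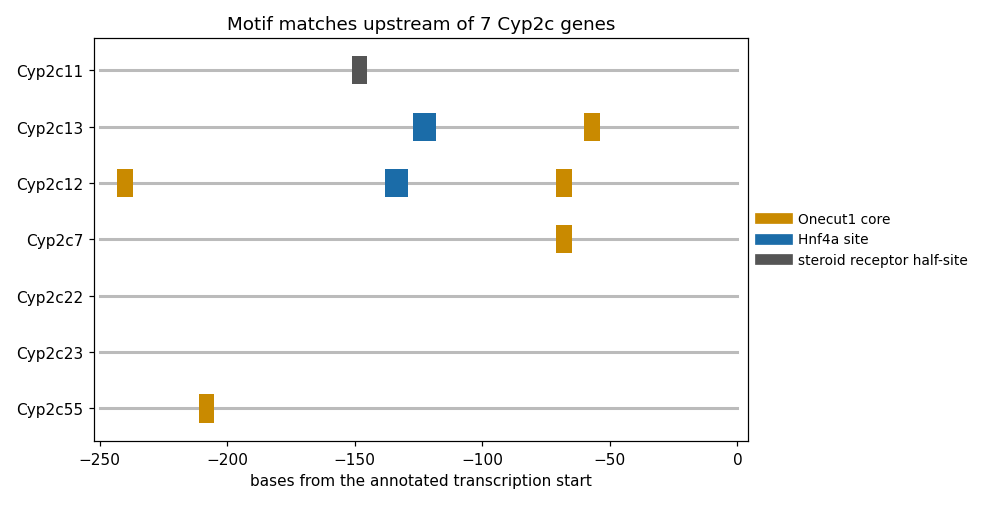
Position of motif matches (bars, either strand) in the 250 bases before the annotated transcription start of 7 Cyp2c genes; the horizontal axis is the distance from the start in bases. Cyp2c12 and Cyp2c13 share the Hnf4a site and the Onecut1 core at nearly the same places, and Cyp2c22 and Cyp2c23 have no match.

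Each value comes from a 60-base probe that the array names or describes as a member. The probes shown are the 3 of the 4 Cyp2c7 probes with a single open forward reading frame, Cyp2c7 being the member with the largest sex difference, and the closest pair of the family, with rn3 coordinates per the file headers. Cyp2c12 is called Cyp2c40 on the array and Cyp2c22 is called Cyp2c70; their RefSeq accessions give the names used here. The 3 Cyp2c7 probes shown lie on the same unplaced piece (A_44_P651091 at chr7_random:579422-579481, A_44_P484669 at chr7_random:582002-582061 and A_44_P698234 at chr7_random:582344-582403).
A_44_P651091: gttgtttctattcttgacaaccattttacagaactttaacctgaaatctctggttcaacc
A_44_P484669: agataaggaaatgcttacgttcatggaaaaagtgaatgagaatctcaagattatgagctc
A_44_P698234: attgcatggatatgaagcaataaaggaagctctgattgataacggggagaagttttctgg
The closest 2 Cyp2c probes on the array were those named Cyp2c37 (chrUn:58531681-58531740) and Cyp2c55 (chr1:244614203-244614262), with capitals at the bases that match in an ungapped alignment.
Cyp2c37: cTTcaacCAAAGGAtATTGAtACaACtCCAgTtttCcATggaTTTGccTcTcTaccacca
Cyp2c55: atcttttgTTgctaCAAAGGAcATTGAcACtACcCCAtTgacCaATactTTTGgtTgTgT
They matched at 32 of 53 overlapping bases, and no other pair at more than 26 bases. How far the probes also bind the transcripts of other Cyp2c genes was not tested.

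Between the sexes, the family split into a male-high pair, a female-high set and a remainder whose difference passed the test in neither treatment. Of the male-high pair, Cyp2c11 passed in vehicle only. In vehicle, 5 of the 13 tested Cyp2c probes were higher and 2 lower in female than in male hepatocytes (limma, Benjamini-Hochberg adjusted p under 0.05 over 30969 probes), against 6.8% of all tested probes higher and 7.13% lower. In dexamethasone, 6 were higher and 1 lower, against 1.26% and 1.75% of all probes. Of those called higher, Cyp2c7 A_44_P698234 in both treatments and A_44_P484669 in dexamethasone passed the detection filter only through female arrays, where they are high, so their counts are no support for a sex difference. The counts repeat 1 gene: every Cyp2c7 probe was called higher in dexamethasone, and all but A_44_P484669 in vehicle. Taking 1 probe a gene, 3 of 10 Cyp2c names were higher and 2 lower in vehicle, against 13.5% of all in either direction. In dexamethasone 3 were higher and 1 lower, against 2.91%. With replicate number as a block, same-numbered female and male dexamethasone arrays being correlated, 6 of the 13 probes were higher and 1 lower in dexamethasone, against 5.7% of all probes called in either direction. Of all probes in vehicle, 2107 were higher and 2209 lower, but 1937 and 11830 with normexp background correction, which moved the median of all probes from -0.02 to -0.34, and 3500 and 2001 with quantile normalization. The 3 female arrays and the 3 male arrays did not overlap for 8 of 13 probes in vehicle and 8 of 13 in dexamethasone, against 31.3% and 32.5% of all probes. Every Cyp2c7 probe was among these in both treatments. For A_44_P698234 and A_44_P484669, which passed the detection filter only through female arrays, this is no support for a sex difference. No male array measured A_44_P484669. The sex patterns of Cyp2c11, Cyp2c12, Cyp2c13 and Cyp2c7 in the rat are textbook knowledge, and these counts are not independent of it.

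**Figure D2:**
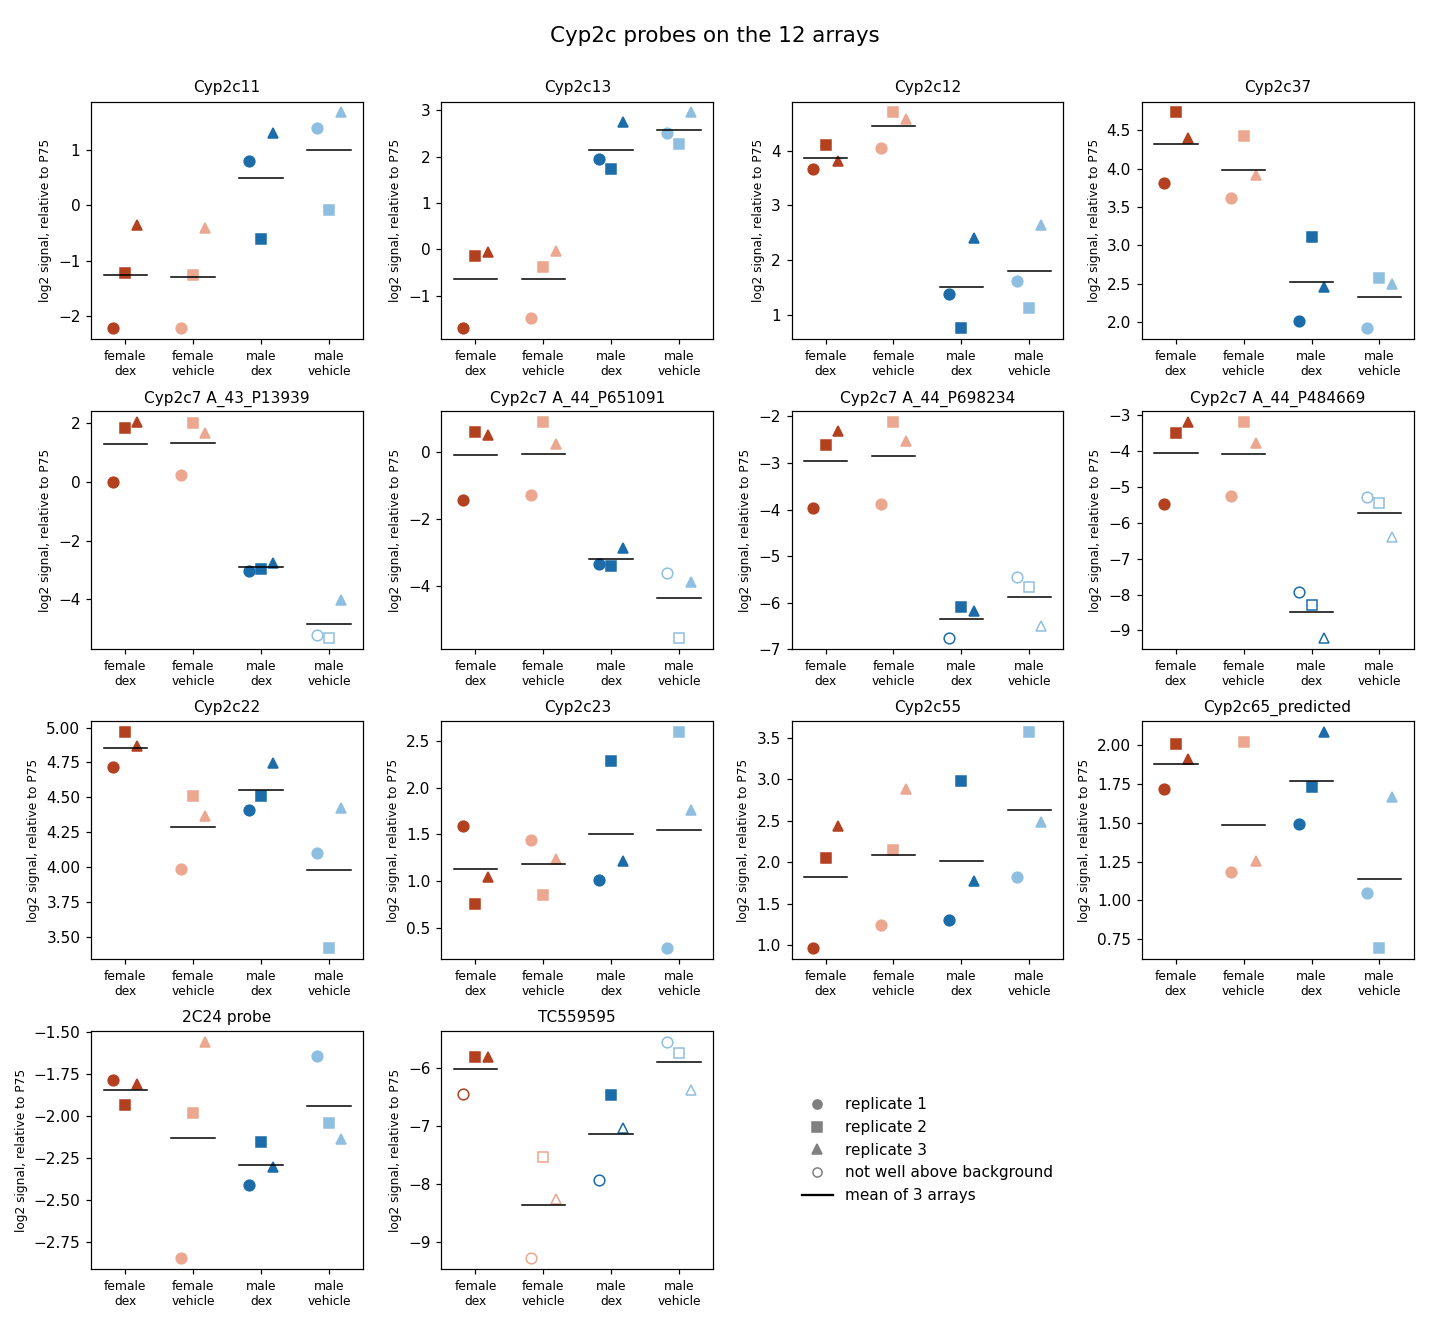
Relative log2 signal (vertical axis) of each of the 14 Cyp2c probes on the 12 arrays, by group; points are single arrays, shapes mark the replicate number, open points were not well above background, and lines are means of 3 arrays. Cyp2c13 lies between -1.70 and -0.04 on female arrays and between 1.73 and 2.95 on male arrays, while Cyp2c12 lies between 3.67 and 4.71 on female arrays and between 0.75 and 2.65 on male arrays.

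Cyp2c13, a male-specific steroid hydroxylase, had the clearest male-high pattern. Its relative log2 signal was -1.70, -0.14 and -0.06 in female dexamethasone and -1.47, -0.38 and -0.04 in female vehicle hepatocytes, against 1.95, 1.73 and 2.73 in male dexamethasone and 2.51, 2.27 and 2.95 in male vehicle hepatocytes. No female array reached any male array. The female minus male difference was -2.77 ± 0.49 in dexamethasone (SE, adjusted p = 0.0154, limma) and -3.21 ± 0.49 in vehicle (adjusted p = 0.00319), a 6.82-fold and a 9.23-fold lower level in females. Female replicate 1 was the lowest in both treatments. Without male dexamethasone replicate 3 the Cyp2c13 difference in dexamethasone had an adjusted p of 0.0568.

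Cyp2c11, the male-specific testosterone hydroxylase that is the major P450 of adult male rat liver, varied more within each sex. It had -2.21, -1.22 and -0.35 in female dexamethasone and -2.23, -1.25 and -0.40 in female vehicle hepatocytes, against 0.81, -0.61 and 1.30 in male dexamethasone and 1.40, -0.08 and 1.68 in male vehicle hepatocytes. In dexamethasone, female replicate 3 was above male replicate 2, so the sexes overlapped there, and in vehicle they did not. The difference was -1.76 ± 0.67 in dexamethasone (adjusted p = 0.190, limma) and -2.30 ± 0.67 in vehicle (adjusted p = 0.0458), where the level was 4.91-fold lower in females. The vehicle call was lost without male replicate 1, male replicate 3, female replicate 1 or female replicate 2 (adjusted p = 0.104, 0.105, 0.153 and 0.0997 for Cyp2c11). It was also lost with array quality weights or with only the compared groups fitted (adjusted p = 0.117 and 0.0881, limma).

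Cyp2c12, the female-specific hydroxylase of steroid sulfates, ran the other way. Its relative log2 signal was 3.67, 4.12 and 3.82 in female dexamethasone and 4.05, 4.71 and 4.59 in female vehicle hepatocytes, against 1.37, 0.75 and 2.40 in male dexamethasone and 1.61, 1.12 and 2.65 in male vehicle hepatocytes. All 6 female arrays were above all 6 male arrays, and male replicate 3 came closest in both treatments. The female minus male difference was 2.36 ± 0.44 in dexamethasone (adjusted p = 0.0195, limma) and 2.65 ± 0.44 in vehicle (adjusted p = 0.00469), a 5.15-fold and a 6.30-fold higher level in females. The probe was well above background on all male arrays too. In dexamethasone the Cyp2c12 call was lost on leaving out any array except male replicate 3 (adjusted p = 0.0501 to 0.0916).

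The probe named Cyp2c37, for a gene whose mouse namesake is an arachidonic acid epoxygenase, had the same direction as Cyp2c12. It read 3.82, 4.73 and 4.40 in female dexamethasone and 3.61, 4.42 and 3.92 in female vehicle hepatocytes, against 2.01, 3.11 and 2.45 in male dexamethasone and 1.92, 2.57 and 2.50 in male vehicle hepatocytes. Every female array was above every male array. The difference was 1.79 ± 0.34 in dexamethasone (adjusted p = 0.0202, limma) and 1.66 ± 0.34 in vehicle (adjusted p = 0.0111), 3.46-fold and 3.15-fold higher in females. In dexamethasone the Cyp2c37 call was lost without replicate 2 or 3 of females or replicate 1 or 3 of males (adjusted p = 0.0633 to 0.0950). With array quality weights Cyp2c37 lost its vehicle call (adjusted p = 0.0584, limma). Its accession had no match among current RefSeq genes, so the array's name is kept; Cyp2c55, whose probe resembles it most, had no sex difference past the test.

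Cyp2c7, a retinoic acid hydroxylase that is female-predominant in rat liver, had the largest differences of the family. Probe A_43_P13939 read -0.01, 1.85 and 2.04 in female dexamethasone and 0.25, 2.03 and 1.68 in female vehicle hepatocytes, against -3.03, -2.95 and -2.75 in male dexamethasone and -5.22, -5.33 and -4.02 in male vehicle hepatocytes, where it was well above background on 1 of 3 arrays. All female arrays were far above all male arrays. The difference was 4.20 ± 0.59 in dexamethasone (adjusted p = 0.00612, limma), 18.4-fold, and 6.18 ± 0.59 in vehicle (adjusted p = 0.000377). Since 2 of the 3 male vehicle arrays did not measure it, that value is from partly unmeasured signal. With those arrays at their lowest signal well above background, the level was at least 32.8-fold (5.04 log2) higher in female vehicle hepatocytes.

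Of the other Cyp2c7 probes, A_44_P651091 gave the same direction in both treatments. A_44_P698234 and A_44_P484669 passed the detection filter only through female arrays, where they are high, so their calls are no support for it. A_44_P651091 was 3.11 ± 0.69 higher in females in dexamethasone (adjusted p = 0.0395, limma) and at least 12.3-fold (3.62 log2) in vehicle (adjusted p = 0.00407), where 1 of 3 male arrays measured it. Its call in dexamethasone was lost on leaving out any array except female replicate 1 (adjusted p up to 0.161 for A_44_P651091). A_44_P698234 was at least 8.49-fold higher in dexamethasone (adjusted p = 0.00895, limma), where 2 of 3 male arrays measured it, and at least 2.14-fold higher in vehicle (adjusted p = 0.00536), where no male array did. These bounds set the female mean against the lowest signal well above background on each male array that did not measure the probe, or the probe's own signal where that was higher. A_44_P484669 was at least 6.46-fold higher in female than in male dexamethasone hepatocytes (adjusted p = 0.00811, limma) and has no fold in vehicle, where its measured means of -4.07 in females and -5.71 in males lay under that limit. Female replicate 1 was the lowest female array for all 4 probes in both treatments.

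**Figure D3:**
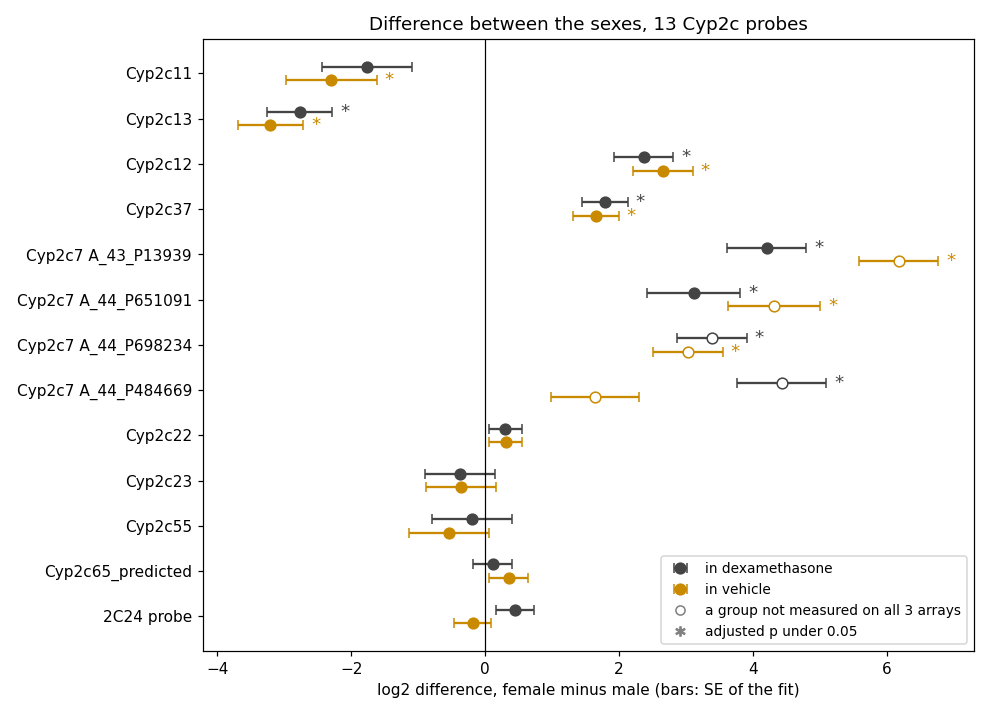
Female minus male difference in relative log2 signal (horizontal axis, bars are SE of the limma fit) for 13 Cyp2c probes in dexamethasone and in vehicle; asterisks mark an adjusted p under 0.05 and open points a group not measured on all 3 arrays. Cyp2c11 and Cyp2c13 lie on the male side, Cyp2c12, Cyp2c37 and Cyp2c7 on the female side, and the other 5 probes between -0.53 and 0.45.

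For the remaining 5 tested probes no sex difference passed the test, with adjusted p from 0.430 to 0.905 in dexamethasone and from 0.432 to 0.691 in vehicle (limma). Cyp2c22, which hydroxylates retinoic acid in rat liver, differed by 0.30 (95% interval -0.24 to 0.84) in dexamethasone and 0.31 (-0.23 to 0.85) in vehicle. Cyp2c23, the arachidonic acid epoxygenase of rat kidney and liver, differed by -0.38 (-1.53 to 0.77) and -0.37 (-1.52 to 0.78). Cyp2c55, known in the mouse as a metabolizer of arachidonic acid, differed by -0.20 (-1.52 to 1.12) and -0.53 (-1.85 to 0.78). For Cyp2c23 and Cyp2c55 these intervals still allow differences of over 1 log2 unit, so the sexes were not shown to be alike.

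Slide and sex were nearly confounded, since slide 1 held male arrays and slide 3 female arrays. With slide as a fixed block, 0 of 13 Cyp2c probes passed in either sex comparison, against 0.601% of all probes in vehicle and 0.116% in dexamethasone. The directions stayed: Cyp2c13 was -3.75 ± 0.93 in dexamethasone and -3.79 ± 0.93 in vehicle, Cyp2c12 was 2.08 ± 0.91 and 2.38 ± 0.91, and Cyp2c7 A_43_P13939 was 3.60 ± 1.20 and 5.82 ± 1.20. Cyp2c11 was -2.94 ± 1.27 and -2.28 ± 1.27, and Cyp2c37 was 1.63 ± 0.62 and 0.92 ± 0.62. Within slide 2, which alone held both sexes, 2 female vehicle arrays minus 2 male dexamethasone arrays gave -3.16 for Cyp2c13, -2.09 for Cyp2c11, 2.81 for Cyp2c12, 1.23 for Cyp2c37 and 2.95 to 3.99 for the 3 Cyp2c7 probes measured on all of these arrays, with sex and treatment differing together.

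Genes outside the family that are known for sex-dependent expression in rat liver were also compared. Of 11 measured male-predominant genes, 5 were lower and 1 higher in female dexamethasone than in male dexamethasone hepatocytes, with a median of -2.58 against 0.03 over all probes, of which 1.75% were lower and 1.26% higher, and 8 were lower and 1 higher in vehicle, with a median of -3.13 against -0.02 over all probes, of which 7.13% were lower and 6.8% higher. Mup5, a major urinary protein, averaged -4.92 ± 1.29 in female dexamethasone and 7.84 ± 0.22 in male dexamethasone hepatocytes (SD, n = 3 each). Obp3, also of the lipocalin family, was well above background on no female array, so it passed the detection filter only through male arrays. The exception was Akr1b7, an aldo-keto reductase, at least 37.5-fold higher in female dexamethasone (adjusted p = 0.000356, limma) and at least 10.0-fold higher in female vehicle hepatocytes (adjusted p = 0.00115) than in the male groups, where no array measured it. Akr1b7 passed the filter only through female arrays, so the calls of Obp3 and Akr1b7 are no support for a sex difference.

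Of 8 measured female-predominant genes, 4 were higher in female dexamethasone and 5 in female vehicle hepatocytes, against 1.26% and 6.8% of all probes, and 0 were lower. Sult2a2, a hydroxysteroid sulfotransferase, was 4.95 ± 0.78 higher in dexamethasone (adjusted p = 0.00971, limma), and A1bg at least 10.8-fold higher (adjusted p = 0.000947). A1bg was well above background on no male array and passed the filter only through female arrays, so its call is no support. In vehicle, Sult2a2 was at least 11.5-fold and the prolactin receptor Prlr at least 2.38-fold higher in females (adjusted p = 0.00248 and 0.0124, limma). Of 24 measured regulators of liver Cyp2c transcription and growth hormone signalling, 1 was higher in females in dexamethasone and 3 in vehicle, against the same 1.26% and 6.8% of all probes, and 0 were lower. Nr2f1, the nuclear receptor COUP-TFI, was 2.16 ± 0.48 higher in dexamethasone (adjusted p = 0.0394, limma), with 2 of 3 male arrays measured, and at least 2.20-fold higher in vehicle (adjusted p = 0.00339). Nr2f1 too passed the filter only through female arrays, where it is high, so its calls are no support. Cux2, a repressor known from female mouse liver, was at least 1.30-fold higher in female vehicle hepatocytes (adjusted p = 0.0172, limma).

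Genes of retinoid metabolism were read beside Cyp2c7 and Cyp2c22, which act on retinoic acid. Of 13 measured genes of retinoic acid handling, 3 were higher and 0 lower in female than in male dexamethasone hepatocytes, and 4 higher and 1 lower in vehicle. Of all probes 1.26% were higher and 1.75% lower in dexamethasone, and 6.8% and 7.13% in vehicle. Cyp26a1, the main retinoic acid hydroxylase, averaged 5.50 ± 0.69 in female dexamethasone and 2.33 ± 0.28 in male dexamethasone hepatocytes, and 4.91 ± 0.84 in female vehicle and 0.44 ± 1.66 in male vehicle hepatocytes (SD, n = 3 each). These differences were 3.17 ± 0.71 (adjusted p = 0.0410, limma) and 4.47 ± 0.71 (adjusted p = 0.00396). Lrat, which esterifies retinol, was 2.90 ± 0.39 higher in female dexamethasone (adjusted p = 0.00500) and at least 6.48-fold higher in female vehicle hepatocytes (adjusted p = 0.000228). Lrat is also on the list of stellate and fibroblast markers, and the cell type it came from was not tested. Aldh1a1, a retinal dehydrogenase, changed by -1.70 ± 0.47 in female relative to male vehicle hepatocytes (adjusted p = 0.0375).

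Among all genes outside the family, Cyp26a1 and Lrat were also the 2 whose 12-array profiles lay nearest to that of Cyp2c7. Part of these profiles is unmeasured, since in male vehicle hepatocytes Cyp2c7 A_43_P13939 was well above background on 1 of 3 arrays and Lrat on 0 of 3. Their root mean square distances from it were 0.88 and 0.97 log2 units, against a median of 2.78 over all genes. The same measure put Slc27a5, a bile acid-CoA ligase, nearest to Cyp2c11 at 0.46, followed by Elmod1 at 0.50. Sdr16c5, a retinol dehydrogenase, and Igfbp6 were nearest to Cyp2c12 at 0.41 and 0.43, and Sorl1 and Ust5r to Cyp2c13 at 0.64 and 0.65. The nearest 2 were Bst1 and Csrp2 for Cyp2c37, Osbpl1a and Hsdl2 for Cyp2c22, Cdkl3 and Acacb for Cyp2c23, Lin7a and Lsp1 for Cyp2c55, and Rundc3a and Ugt2b37 for the probe named Cyp2c65_predicted. Hcn3 and Nxph3 were nearest to the probe described as 2C24.

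Cells other than hepatocytes were also compared between the sexes. Of 8 measured stellate and fibroblast markers, 2 were higher and 0 lower in female than in male dexamethasone hepatocytes, and 5 higher and 0 lower in vehicle, against 1.26% and 6.8% of all probes higher. Lrat, also counted under retinoic acid handling, was among those called in each treatment. The summed relative log2 signal of the stellate and fibroblast markers was 2.31 to 2.75 in female dexamethasone and 3.01 to 3.78 in female vehicle, against 1.39 to 2.55 in male dexamethasone and 2.13 to 2.79 in male vehicle arrays. Of 11 Kupffer cell markers, 0 differed in dexamethasone and 2 were higher in female vehicle. Of 10 hepatocyte markers, 0 differed in dexamethasone and 2 were lower in female vehicle. The summed signal of 8 endothelial markers was 3.09 to 4.30 in female dexamethasone and 3.86 to 5.02 in female vehicle, against 2.27 to 2.87 in male dexamethasone and 2.97 to 3.38 in male vehicle arrays. The sexes did not overlap within a treatment, but female dexamethasone and male vehicle arrays did. Of these markers 0 were called in dexamethasone. In vehicle 1 was higher and 1 lower in females, against 6.8% and 7.13% of all probes. The summed signal of 7 cholangiocyte markers was 3.05 to 3.77 in female dexamethasone and 3.69 to 4.66 in female vehicle, against 2.75 to 3.13 in male dexamethasone and 1.54 to 3.63 in male vehicle arrays. Of these, 0 were called in dexamethasone, and 0 were higher and 1 lower in female vehicle. The sums weigh bright markers most. The part of these differences in the Cyp2c values was not tested, and in such bulk RNA fewer cells of a type and less RNA per cell cannot be told apart.

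The estimated response to dexamethasone was under 1 log2 unit in every well-measured member. Over the 9 probes above background on all 12 arrays, the difference between dexamethasone and vehicle ran from -0.58 to 0.56 in female and from -0.61 to 0.63 in male hepatocytes. In females 0 of 13 probes passed the test, against 3.79% of all probes, with adjusted p from 0.274 to 0.999 (limma); 1 probe, Cyp2c22, had an unadjusted p under 0.05. In males 0 were higher and 1 was lower, against 5.45% and 4.75%. That 1 was Cyp2c7 A_44_P484669, which was well above background on no male array, so it has no measured level and no fold. In males 3 probes had an unadjusted p under 0.05: A_44_P484669, Cyp2c22 and Cyp2c7 A_43_P13939. The female response minus the male response passed for 0 of 13 probes, against 0.107% of all probes, with adjusted p from 0.248 to 0.998. There 2 Cyp2c7 probes (A_43_P13939 and A_44_P484669) had an unadjusted p under 0.05. Dexamethasone and vehicle arrays did not overlap for 1 of 13 probes in females and 4 of 13 in males, against 34% and 25.5% of all probes.

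Dexamethasone and vehicle arrays with the same sex and number deviated together across all probes (correlations of deviations 0.27 to 0.46), so the numbers were read as pairs within a sex. The pairs had little spread for several members even though the replicates differed widely. Cyp2c22 was higher in dexamethasone in all 6 pairs, by 0.73, 0.46 and 0.51 in females and 0.31, 1.09 and 0.32 in males. Cyp2c12 differed by -0.38, -0.59 and -0.77 in females and -0.24, -0.38 and -0.25 in males. Cyp2c55 differed by -0.28, -0.10 and -0.44 in females and -0.52, -0.58 and -0.71 in males. These 3 were the members with 1 direction in all 6 pairs, of 14, against 24.5% of all probes.

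**Figure D4:**
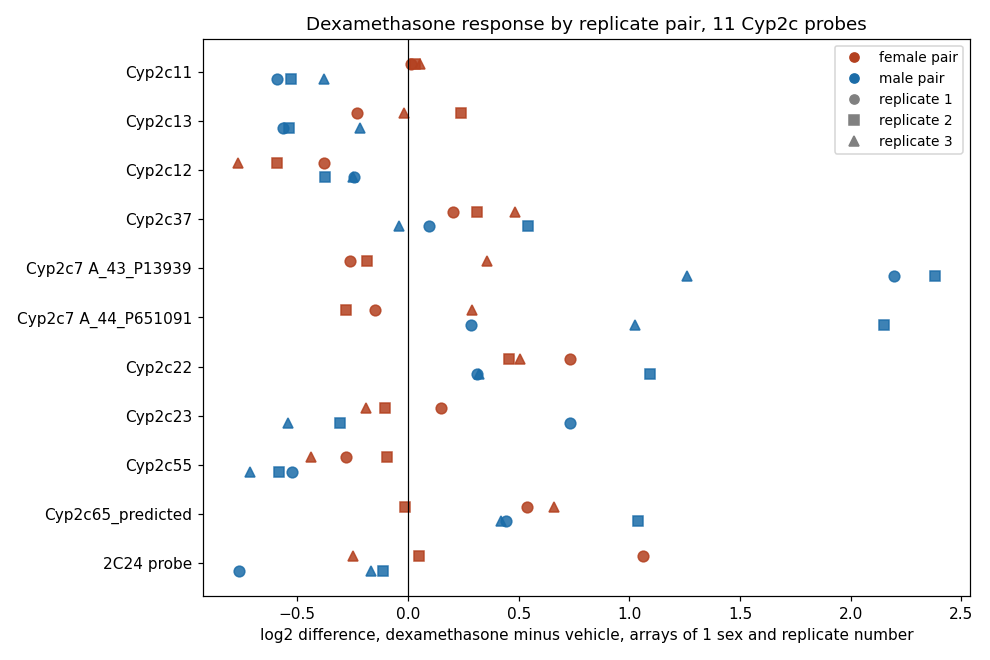
Dexamethasone minus vehicle difference in relative log2 signal (horizontal axis) within each of the 3 female and 3 male replicate pairs, for 11 Cyp2c probes; colours mark the sex and shapes the replicate number. All 6 pairs lie right of 0 for Cyp2c22 and left of 0 for Cyp2c12 and Cyp2c55, and the male pairs of Cyp2c7 A_43_P13939 lie between 1.26 and 2.38, with pairs 1 and 2 taken against vehicle arrays that did not measure it.

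With these pairs as a block, 0 of 13 Cyp2c probes passed in females (6.45% of all probes), and 1 was called higher and 3 lower in males (7.53% and 8.31%). In males Cyp2c11 fell by 0.50 ± 0.12 (adjusted p = 0.0351, limma), or 1.41-fold, and Cyp2c55 fell by 0.61 ± 0.13 (adjusted p = 0.0268), or 1.52-fold. Both calls were lost with the pairs as a random effect (adjusted p = 0.507 and 0.356) and with no block (0.683 and 0.561). The other call downwards was the unmeasured A_44_P484669. Cyp2c7 A_43_P13939 was called higher (adjusted p = 0.00721, limma). It was well above background on 3 of 3 dexamethasone and 1 of 3 vehicle arrays, so its fitted difference of 1.95 ± 0.25 is partly from unmeasured signal, and the measured rise was at least 0.80 (1.75-fold). With replicate number as a block across both sexes A_43_P13939 had an adjusted p of 0.0206 in males, where 12.8% of all probes passed. Cyp2c7 A_44_P651091 was not called within sexes (adjusted p = 0.0618). The same block gave no call for the difference of the responses between the sexes (0.00323% of all probes), where Cyp2c11 had 0.53 ± 0.16 (adjusted p = 0.209) and Cyp2c7 A_43_P13939, with the same unmeasured vehicle arrays, had -1.97 ± 0.35 (adjusted p = 0.104).

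Averaged over both sexes, a comparison added after the values were seen, 0 of 13 probes passed without the block (13.3% of all probes). With it, 3 were called higher and 3 lower, against 9.14% and 10.6% of all probes. Cyp2c22 rose by 0.57 ± 0.13 (adjusted p = 0.0292, limma; 0.0543 without the block), 1.48-fold. The probe named Cyp2c65_predicted rose by 0.51 ± 0.14 (adjusted p = 0.0447; 0.126), and Cyp2c7 A_43_P13939 was called higher (adjusted p = 0.0136; 0.161). For that probe the female response was -0.03, so the average came from the male arrays, where 2 of 3 vehicle arrays did not measure it. Cyp2c12 fell by 0.44 ± 0.09 (adjusted p = 0.0213; 0.398) and Cyp2c55 fell by 0.44 ± 0.09 (adjusted p = 0.0197; 0.540), with A_44_P484669 again the third. With the pairs as a random effect, Cyp2c22 and Cyp2c65_predicted kept adjusted p of 0.0163 and 0.0449, and Cyp2c12 and Cyp2c55 had 0.202 and 0.338, and Cyp2c7 A_43_P13939 had 0.0510, with 22.6% of all probes passing.

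Slide and treatment were also partly confounded. Only male pair 1 and female pair 3 lay on 1 slide each, and there Cyp2c22 differed by 0.51 in females and 0.31 in males, Cyp2c12 by -0.77 and -0.24, and Cyp2c55 by -0.44 and -0.52. Cyp2c11 differed by 0.06 in the female pair and -0.59 in the male pair, and Cyp2c7 A_43_P13939 by 0.36 in the female pair and at least 0.59 in the male pair, whose vehicle array did not measure it. With slide as a fixed block, 0 of 13 Cyp2c probes passed in either sex (0.93% of all probes in females, 1.93% in males).

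The 95% intervals without the block show what the arrays could not resolve. For Cyp2c11 the response was 0.03 (-1.45 to 1.52) in females and -0.50 (-1.99 to 0.99) in males, and for Cyp2c13 the interval was -1.08 to 1.07 in females and -1.51 to 0.63 in males. For Cyp2c22 they were 0.02 to 1.11 in females and 0.03 to 1.12 in males. For Cyp2c23 they were -1.20 to 1.10 and -1.19 to 1.11.

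For many members the order of the replicates was shared by dexamethasone and vehicle. Female replicate 1 was the lowest female array in both treatments for 11 of the 13 probes, against 19.4% of all probes. These were all but Cyp2c23 and the 2C24 probe. In the female groups Cyp2c11 spanned -2.21 to -0.35 in dexamethasone and -2.23 to -0.40 in vehicle, and the pairs differed by 0.02 to 0.06. Female dexamethasone replicate 1 lay on slide 3 and female vehicle replicate 1 on slide 2, with hepatocyte marker sums of 10.21 and 9.93, the lowest of their groups. Kupffer cell marker sums were 4.75 in replicate 1 against 6.26 and 6.03 in the other female dexamethasone arrays, and 4.64 against 6.07 and 5.71 in female vehicle. Endothelial sums were also lowest in replicate 1, at 3.09 and 3.86, and cholangiocyte sums highest, at 3.77 and 4.66. The part of these shifts in the Cyp2c values of replicate 1 was not tested.

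In males the members split. Replicate 2 was the lowest in both treatments for Cyp2c11, Cyp2c12, Cyp2c13 and Cyp2c7 A_44_P651091, 4 of 13 against 17.2% of all probes. Replicate 1 was the lowest for Cyp2c23, Cyp2c37 and Cyp2c55, 3 of 13 against 13.9%. Cyp2c23 had 1.02, 2.29 and 1.22 in male dexamethasone and 0.28, 2.59 and 1.76 in male vehicle hepatocytes, the widest spread of the 9 well-measured probes (SD 1.17 in male vehicle). Cyp2c55 had 1.30, 2.98 and 1.77 in male dexamethasone and 1.82, 3.56 and 2.48 in male vehicle hepatocytes, with replicate 2 high, where Cyp2c11 was low.

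The less known members were measured as follows. Cyp2c65_predicted, a name taken from a mouse gene, had 1.72, 2.01 and 1.91 in female dexamethasone and 1.18, 2.02 and 1.26 in female vehicle, and 1.49, 1.73 and 2.08 in male dexamethasone and 1.05, 0.69 and 1.66 in male vehicle hepatocytes. It was higher in dexamethasone in 5 of 6 pairs. The 2C24 probe averaged -1.84 ± 0.08 in female dexamethasone and -2.13 ± 0.66 in female vehicle, and -2.29 ± 0.13 in male dexamethasone and -1.94 ± 0.26 in male vehicle hepatocytes (SD, n = 3 each). TC559595, described as similar to hamster 2C25, did not pass the filter: it was well above background on 2 of 3 female dexamethasone and 0 of 3 female vehicle arrays, and on 1 of 3 male dexamethasone and 0 of 3 male vehicle arrays. Its female dexamethasone mean was at least 1.99-fold above the female vehicle limit, with no test.

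Other P450 genes and their electron donors were read beside the family. Por, the reductase that passes electrons to microsomal P450 enzymes, rose 2.14-fold with dexamethasone in female (1.10 ± 0.17, adjusted p = 0.00604, limma) and 1.53-fold in male hepatocytes (0.61 ± 0.17, adjusted p = 0.0409). It was the 1 of 14 electron donor and heme synthesis genes that passed in each sex. Of all probes, 3.79% were called in either direction in females and 5.45% were called higher in males. Of 17 measured CYP2 genes outside Cyp2c, 2 rose in females, Cyp2a2 by 1.15 ± 0.20 and Cyp2f4 by 0.81 ± 0.19 (adjusted p = 0.0121 and 0.0392, limma), and 1 in males, Cyp2f4 by 0.98 ± 0.19 (adjusted p = 0.0101), with 0 lower. These counts stand against the same 3.79% and 5.45% of all probes. Their median response was 0.33 in females and 0.23 in males, against -0.04 and -0.05 over all probes. Cyp2d3 was lower in females, by -2.58 ± 0.27 in dexamethasone and -2.80 ± 0.27 in vehicle (adjusted p = 0.00102 and 0.000377, limma).

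Among 13 retinoic acid genes, 3 rose with dexamethasone in females, and 2 rose and 1 fell in males. Of all probes, 3.79% were called in either direction in females, and 5.45% were higher and 4.75% lower in males. Rdh16, a retinol dehydrogenase, rose by 3.84 ± 0.61 in female (adjusted p = 0.00771, limma) and 4.25 ± 0.61 in male hepatocytes (adjusted p = 0.00275, with 2 of 3 male vehicle arrays measured), and Dhrs3, a retinal reductase, by 1.22 ± 0.25 and 1.71 ± 0.25 (adjusted p = 0.0248 and 0.00305). Among 24 regulators, 0 passed in females and 2 rose in males, against 5.45% of all probes higher in males. These were Cux2 at least 1.49-fold (adjusted p = 0.0101, limma) and the nuclear receptor Rora by 0.69 ± 0.16 (adjusted p = 0.0263). Among 17 arachidonic acid genes, 2 were called lower in females, against 3.79% of all probes called in either direction. Ptgs2, the inducible cyclooxygenase, was at least 6.14-fold lower (adjusted p = 0.000167, limma), and Pla2g4a, a phospholipase, fell by 1.36 ± 0.26 (adjusted p = 0.0190). In males 2 passed downwards, against 4.75% of all probes. Cyp4f5 fell by 0.77 ± 0.19 (adjusted p = 0.0297, limma), and the other was Ptgs2, which no male array measured. Ptgs2 passed the detection filter only through female vehicle arrays, where it is high, so its calls in both sexes are no support for a response.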

How the data were processed

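Total RNA of 12 hepatocyte samples was labelled with Cy3 and hybridised to 1-colour Agilent arrays, 1 per sample. The deposited files hold, intensity values that the authors extracted with Feature Extraction 9.5.3.1, per the file headers (9.5 in the submitters' processing notes), with probe coordinates on rn3. The deposited value table holds the same processed intensity (540216 of 540216 values equal); its scale is linear and uncentred.

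Processed signals of repeat spots were averaged, divided by the array's 75th percentile and taken as log2. A probe was kept if any group had it well above background on its 3 arrays (30969 of 41012). Accessions or symbols in RefSeq named 19872 probes. The 4 groups were fitted together with limma 3.58.1 (R 4.3.3), and p-values were Benjamini-Hochberg adjusted over all kept probes at 0.05; the fit was tested on simulated data. Counts of arrays that do not overlap, of pairs and of replicate order use the 30731 kept probes with a value on every array.

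The members, gene lists and tests were chosen with earlier results of these data known. Every Cyp2c probe is reported. From each list the text draws on up to 2 genes per direction and comparison among those past the threshold, with the highest-mean probe of a gene, and for likeness the 2 nearest genes. Dexamethasone and vehicle pairs were accepted where every same-number correlation was over 0.1. Female and male vehicle arrays of the same number correlated at 0.017 to 0.110 and were not paired; dexamethasone arrays of the same number correlated at 0.171 to 0.213 between the sexes, so the block was also run there. Bounds for groups measured on 1 or 2 arrays were added after seeing the data. The number of arrays limits the precision. No protein sequence was used here. A few items are not reported here.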

Additional observations from a re-analysis of the deposited data

How the results depend on the processing

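Over all settings, 1570 values of single Cyp2c probes were recomputed. Of these, 1469 kept their direction and side of the threshold or moved by less than 1 SE, 50 lost a call, 33 gained one and 18 uncalled values turned sign by more than 1 SE. No called value turned sign. Signs changed in 117 values, none of them called. The within-sex pair blocks, the single-slide fits and the average over both sexes were chosen after seeing the data.

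For the sex difference in vehicle, the 7 Cyp2c calls became 4 with probes well above background on all 12 arrays and 0 with slide as a fixed block. In dexamethasone the 7 became 3 and 0, and 4 with 1 probe a gene. For the male response the 1 Cyp2c call (A_44_P484669) became 2 with no filter, 2 with slide as a random block, 2 with the replicate block and 2 with the random within-sex replicate block, 4 with the fixed one, and 0 with the all-array filter, slide as a fixed block, array weights, 1 probe a gene or slide 1 alone. With normexp and quantile normalization the count stayed 1 but was a call upwards, Cyp2c22 and Cyp2c7 A_43_P13939, in place of A_44_P484669. For the female response the 0 became 1 with no filter and 1 (Cyp2c22) with array weights, and the 0 for the difference of responses became 1 with no filter. Leaving out 1 array at a time gave 6 to 7 Cyp2c calls for the sex difference in vehicle, 4 to 6 in dexamethasone, 0 to 2 for the male response, and 0 to 0 for the female response and the difference of responses.

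Over all probes, the 3159 calls of the male response became 12563 with no filter, 599 with slide as a fixed block, 335 with only its 2 groups, 1205 with array weights, 4906 and 6154 with the fixed and random within-sex replicate block, 0 on slide 1 alone, and 1433 to 4143 leaving out 1 array. The 1173 of the female response became 630 with quantile normalization, 591 with the all-array filter, 288 with the slide block, 3071 with its 2 groups, 5329 with weights, 1996 and 2733 with the within-sex blocks, and 333 to 1080 leaving out 1 array. The 33 for the difference of responses became 0 with normexp, 320 with quantile normalization, 5 with the median, 7416 with no filter, 4 with the all-array filter, 4 and 542 with slide fixed and random, 3 with the replicate block, 1 and 747 with the within-sex blocks, 128 with weights, and 0 to 637 leaving out 1 array. The 4316 for sex in vehicle became 13767 with normexp, 14159 with no filter, 186 and 7158 with slide fixed and random, 970 with its 2 groups, 2420 with weights, and 1973 to 5188 leaving out 1 array. The 932 for sex in dexamethasone became 594 with no filter, 36 and 2162 with slide fixed and random, 1765 with the replicate block, 4759 with weights, and 203 to 524 leaving out 1 array. The split of higher and lower calls moved too. For the male response it was 1689 and 1470, against 1109 and 3509 with normexp, 2641 and 1288 with quantile normalization, 1275 and 2327 with the median and 2262 and 10301 with no filter. For sex in vehicle, no filter gave 2759 and 11400 in place of 2107 and 2209. For sex in dexamethasone normexp gave 259 and 835 in place of 390 and 542, and for the difference of responses quantile normalization gave 39 and 281 in place of 22 and 11. The cause was not tested. Male vehicle arrays had the fewest probes above background, which leaves Cyp2c7 without a level on most of them.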
